A study of Mus musculus with 2 samples.

Results

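*Dcn*, *Bgn*, *Lum*, *Fmod*, *Aspn*, *Ogn*, *Prelp*, *Vcan*, *Has1* and *Has2* encode proteoglycan core proteins of the matrix and the enzymes that make hyaluronan. They were chosen by gene symbol, as 10 of the 31053 genes listed, and all 10 were detected. Their RNA was counted in 2 single-cell libraries of mouse back-skin wounds. By the methods the wounds were 5 mm wide, and 5 days later the tissue was collected with a wider punch of 10 mm. Both libraries carry the strain label C57BL/6, an age of 7 to 9 weeks and the genotype *Mrc1-DTR*, in which the promoter of *Mrc1*, the gene of the macrophage receptor CD206, drives the receptor for diphtheria toxin. One was treated with PBS and the other with diphtheria toxin (DTX). The methods instead describe the control mice as wild-type and given toxin, and the study's text attaches the barcode totals of the libraries to the opposite conditions, so the conditions given here rest on the labels. The methods give several mice per group, and no label here tells their cells apart. They mention technical but no biological replicates, without saying whether a deposited library joins the technical ones. Live cells, which exclude the dye 7AAD, were sorted without regard to type, so fibroblasts, immune cells and keratinocytes were captured together.

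Decorin, biglycan, lumican, fibromodulin, asporin, osteoglycin and PRELP belong to the small leucine-rich proteoglycans, whose curved core proteins bind collagen and, in part, growth factors such as TGF-beta. Versican is a large aggregating proteoglycan that binds hyaluronan, and it is typical of provisional wound matrix. Hyaluronan is a long sugar chain without a core protein, which HAS1 and HAS2 extrude through the plasma membrane as they build it.

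Each condition has 1 library, so no test between the conditions was possible, and intervals give counting error only, since amplified reads are not independent animals or captures. After filtering, 7944 cells with 81235634 unique molecular identifiers (UMIs, which count RNA molecules) remained in the PBS-labelled library and 6613 cells with 54872675 UMIs in the DTX-labelled library. Their median depths were 9579.5 and 7286 UMIs per cell, 37 barcodes occurred in both libraries, and 13 of these were among the kept cells. *Mrc1*, the gene whose promoter drives the receptor, stood at 493 UMIs per 1000000 UMIs of the class (CPM) in macrophage-like cells of the PBS-labelled library and at 430 in those of the DTX-labelled library. In all kept cells it stood at 65.4 and 268 CPM. Macrophage-like cells were 21.4% and 66.9% of these, so this difference cannot be told apart from the mix of cells captured. Neither level counts cells that bear CD206, and whether such cells were lost was not tested. *Xist* had 6 and 5 UMIs and *Ddx3y* 10322 and 6827, the pattern of male cells in both. Fibroblast-like cells numbered 3065 under PBS and 656 under DTX, macrophage-like cells 1697 and 4421, and epithelial-like cells 2066 and 235.

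Several members lie next to each other in the genome (GENCODE M21, GRCm38, all protein-coding). *Dcn* (chr10:97479609-97518143, plus strand) is followed after 47.0 kb by *Lum* (chr10:97565128-97572703, plus strand), with no protein-coding gene between. On chromosome 13, *Ecm2*, *Aspn* (chr13:49544443-49567565), *Omd* and *Ogn* (chr13:49608046-49624501) follow each other on the plus strand, with gaps of 11.7, 14.9 and 15.2 kb. *Prelp* (chr1:133910304-133921414, minus strand) and *Fmod* (chr1:134037254-134048277, plus strand) are 116 kb apart. *Vcan* (chr13:89655312-89742509, minus strand), *Has2* (chr15:56665627-56694539, minus strand), *Has1* (chr17:17843323-17855205, minus strand) and *Bgn* (chrX:73483602-73495933, plus strand) stand apart from the other members.

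The 250 bases before the annotated start are shown for *Aspn* and *Ogn*, 2 genes of the chromosome 13 row, and for *Has1* and *Vcan*, whose levels in fibroblast-like cells lay above those of PBS under DTX. They are given 5′ to 3′ on the strand of each gene, from RefSeq on GRCm38.p6, which listed a promoter for 7 of the 10 members. Capitals mark motifs that were searched on both strands. These were the TATA box, with the letters TATAAA, and the CCAAT box, whose letters are its name. The CRE motif was searched as TGACGTCA, the motif of the factor AP-1 as TGANTCA, and that of the TEAD factors as GGAATG.
*Aspn* (chr13:49544193-49544442, plus strand): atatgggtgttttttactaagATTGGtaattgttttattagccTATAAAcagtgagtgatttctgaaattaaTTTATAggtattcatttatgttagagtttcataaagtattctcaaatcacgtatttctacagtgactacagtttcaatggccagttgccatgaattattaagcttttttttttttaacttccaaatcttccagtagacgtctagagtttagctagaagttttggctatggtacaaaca
*Ogn* (chr13:49607765-49608014, plus strand): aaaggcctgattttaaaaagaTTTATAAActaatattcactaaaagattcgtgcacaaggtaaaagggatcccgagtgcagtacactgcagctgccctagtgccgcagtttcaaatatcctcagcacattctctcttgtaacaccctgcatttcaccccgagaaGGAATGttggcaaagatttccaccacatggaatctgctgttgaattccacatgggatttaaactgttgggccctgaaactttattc
*Has1* (chr17:17855189-17855438, minus strand): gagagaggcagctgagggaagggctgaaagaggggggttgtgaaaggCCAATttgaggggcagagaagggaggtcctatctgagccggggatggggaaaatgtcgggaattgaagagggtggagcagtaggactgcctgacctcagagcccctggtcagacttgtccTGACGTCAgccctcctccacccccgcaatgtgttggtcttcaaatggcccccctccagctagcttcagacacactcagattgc
*Vcan* (chr13:89742513-89742762, minus strand): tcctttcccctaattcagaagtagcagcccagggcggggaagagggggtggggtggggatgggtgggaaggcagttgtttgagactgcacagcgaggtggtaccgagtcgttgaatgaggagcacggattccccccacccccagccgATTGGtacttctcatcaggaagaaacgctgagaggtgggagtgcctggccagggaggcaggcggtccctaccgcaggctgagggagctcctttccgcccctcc
The letters TATAAA occur in *Aspn* 207 bases before the start, and on the other strand 178 bases before it. In *Ogn* the matches on the strands overlap, at 229 and 227 bases, and GGAATG stands at 86 bases. TATAAA was found in 12.4% and GGAATG in 12.6% of 32851 promoters of the same length. The *Has1* promoter holds TGACGTCA, found in 1.55% of promoters, at 83 bases and CCAAT, found in 33.8%, at 203 bases. CCAAT was also matched in *Aspn* at 229 bases and in *Vcan* at 103 bases, both on the other strand, and TGANTCA, found in 6.75% of promoters, in none of the 4 shown. These matches describe letters and not sites in use.

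Fibroblast-like cells held between 85.2% and 99.0% of the UMIs of each member other than *Vcan* and *Has2* in both libraries. For these 8 members the share lay between 89.4% and 99.1% when cells with over 4% mitochondrial UMIs were left out, and between 68.2% and 98.5% without cells of over 2000 genes. Decorin RNA was the most abundant at 16076 CPM (95% exact Poisson interval 16034 to 16118) under PBS and 10246 (10183 to 10310) under DTX. Lumican followed at 4224 and 2584 CPM and biglycan at 2726 and 2545 CPM, and under DTX the intervals of these neighbours in the order overlapped. Asporin stood at 782 and 584 CPM, and *Has1* at 535 and 673 CPM, so the order of this pair was reversed between the libraries. Osteoglycin was at 476 and 274 CPM, PRELP at 280 and 274 CPM, and versican at 217 and 287 CPM. Under DTX the intervals of osteoglycin, PRELP and versican overlapped. *Has2*, at 46.5 and 56.6 CPM, and *Fmod*, at 40.2 and 53.5 CPM, were the lowest. The 3′ chemistry counts molecule ends, so levels were not divided by gene length.

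After thinning to 2000 UMIs per cell, which left out shallower cells and kept 2983 and 650, 99.4% of the fibroblast-like cells under PBS and 97.4% under DTX had a *Dcn* UMI. *Lum* was found in 93.5% and 86.2% of them, *Aspn* in 64.4% and 50.3%, and *Ogn* in 44.1% and 29.4%. *Vcan* went the other way, from 27.8% (26.2% to 29.5%) to 38.5% (34.7% to 42.3%). *Has2* was found in 7.17% and 7.69% and *Fmod* in 2.85% and 2.92%, with overlapping intervals. Among cells with a *Has1* UMI, 8.48% under PBS and 9.43% under DTX also had one of *Has2*, against 5.85% and 5.67% of the others.

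**Figure D1:**
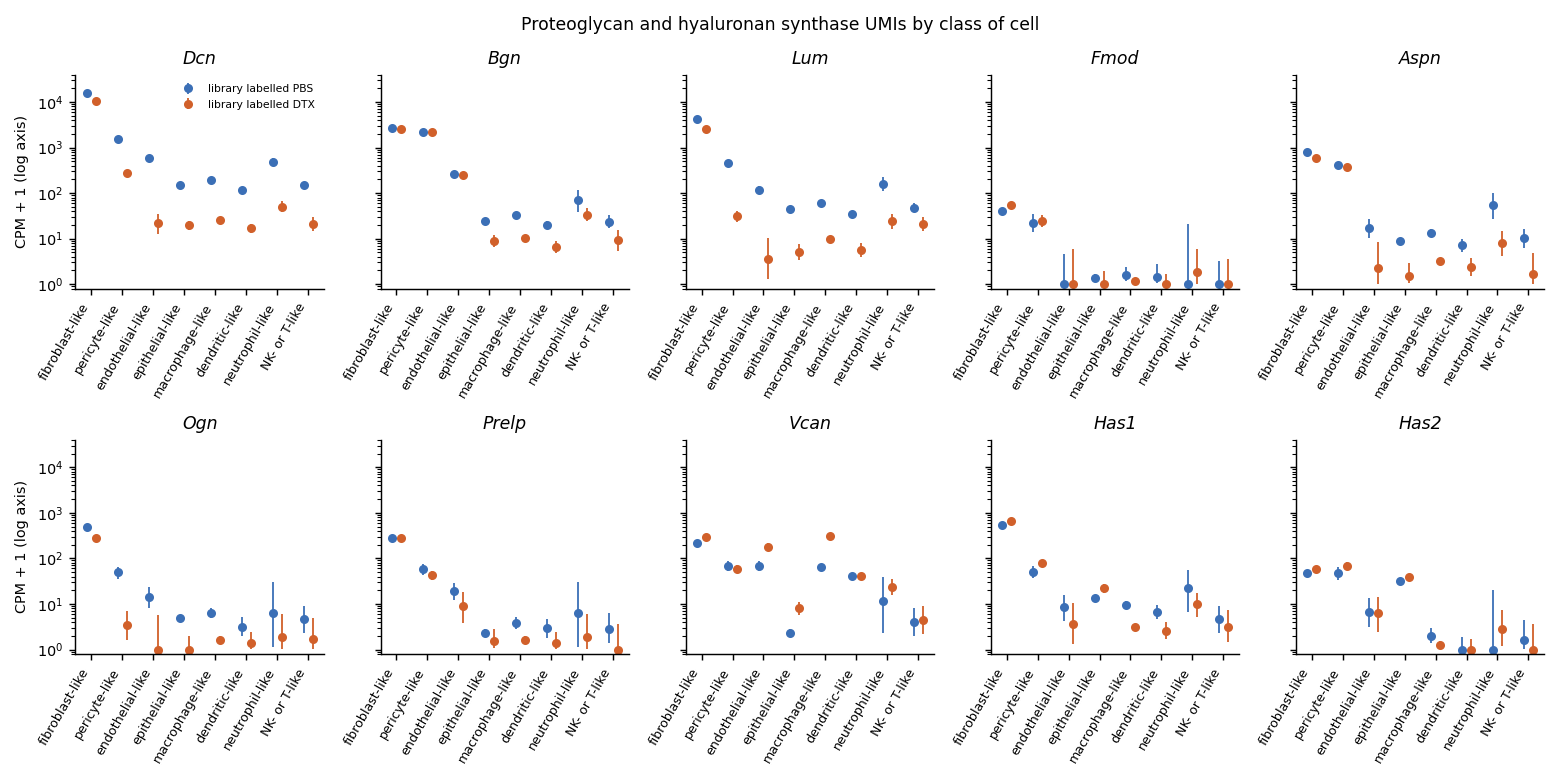
Level of each member as CPM + 1 (log axis) by class of cells, in the PBS-labelled and the DTX-labelled library, with 95% exact Poisson intervals as bars. *Dcn*, *Lum* and *Ogn* stand highest in fibroblast-like cells, *Bgn* is nearly as high in pericyte-like cells, *Has2* also appears in epithelial-like cells, and *Vcan* in macrophage-like cells reaches 302 CPM under DTX.

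Pericyte-like cells, the mural cells of small vessels, held *Bgn* at 2156 CPM under PBS and 2187 CPM under DTX, close to the level in fibroblast-like cells, and *Aspn* at 423 and 364 CPM. *Has2* stood at 45.8 and 67.0 CPM in them, with a log2 ratio to fibroblast-like cells of -0.02 (-0.49 to 0.42) under PBS and 0.24 (-0.06 to 0.53) under DTX. *Has1* was at 50.3 and 77.0 CPM in these cells, *Prelp* at 57.0 and 41.5 CPM and *Fmod* at 21.2 and 23.7 CPM. *Dcn*, by contrast, was at 1522 and 270 CPM and *Lum* at 466 and 30.2 CPM. With 61 and 115 pericyte-like cells, this class supplied 1.95% of all *Bgn* UMIs under PBS and 12.7% under DTX. Epithelial-like cells held 34.4% and 17.8% of all *Has2* UMIs, at 31.1 and 37.9 CPM. The median mitochondrial share of epithelial-like cells was 4.43% and 5.13%, so that a limit of 4% left out most of this class. At that limit, fibroblast-like cells held 84.2% and 94.3% of the *Has2* UMIs in place of 63.4% and 66.7%. Both epithelial clusters had them, at 25.4 and 16.7 CPM in the cluster led by *Krt16*, *Krt1* and *Krt10*, and at 38.8 and 50.3 CPM in that led by *Cst6*, *Krt79* and *Krt17*. *Has1* was at 12.3 CPM (349 UMIs) and 21.1 CPM (82 UMIs) in epithelial-like cells, and at 16.2 and 29.4 CPM in the cluster led by *Cst6*. Endothelial-like cells held *Bgn* at 257 and 253 CPM and *Vcan* at 67.7 and 179 CPM.

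RNA released from broken cells can give UMIs in other cells, and its part in the values outside the fibroblast-like class was not tested. In fibroblast-like cells there were 26.3 *Lum* UMIs per 100 *Dcn* UMIs under PBS and 25.2 under DTX. Macrophage-like cells had 31.1 and 34.7, dendritic-like cells 30.1 and 29.3, neutrophil-like cells 33.3 and 46.4 (28.0 to 75.2), and barcodes with under 500 genes 31.6 and 37.0. *Dcn* in macrophage-like cells was at 191 and 25.3 CPM, and the 10 genes of a fibroblast RNA list summed to 732 and 166 CPM there. Under DTX, NK- or T-like cells had 100 (57.7 to 173), from 29 *Lum* and 29 *Dcn* UMIs. *Has2* per 100 *Dcn* UMIs was 21.2 and 204 in epithelial-like cells against 0.289 and 0.552 in fibroblast-like cells, and *Has1* was 8.35 and 114 against 3.33 and 6.57. In pericyte-like cells under DTX, *Has1* per 100 *Dcn* UMIs was 28.6, *Prelp* 15.4 and *Fmod* 8.79, against 6.57, 2.68 and 0.522 in fibroblast-like cells. Under PBS pericyte-like cells had 45 *Has1*, 51 *Prelp* and 19 *Fmod* UMIs beside 1361 *Dcn* UMIs. Fibroblast-like cells there had 18736, 9808 and 1409 beside 563017. The proportion of *Has1* to *Dcn* was thus nearly the same in both classes under PBS. *Vcan* per 100 *Dcn* UMIs was 32.8 and 1197 in macrophage-like cells against 1.35 and 2.80 in fibroblast-like cells. In epithelial-like cells 5.66% (PBS) and 4.37% (DTX) had a *Has2* UMI after thinning, against 0.271% and 0.0934% of macrophage-like cells, whose median depths were 4702 and 6728 UMIs.

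**Figure D2:**
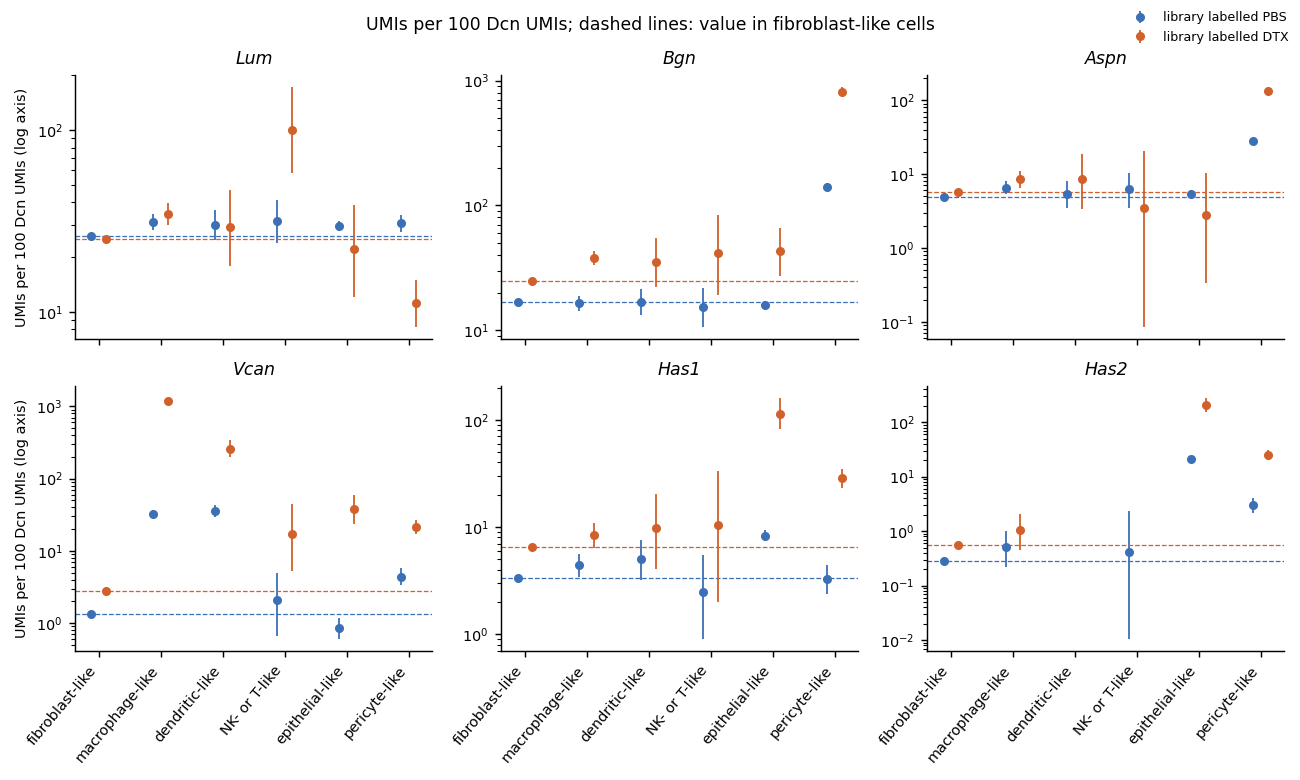
UMIs of a member per 100 *Dcn* UMIs (log axis) by class, for both libraries, with 95% intervals from counting as bars and the value in fibroblast-like cells as dashed lines. Among the 6 classes plotted, *Lum* lies between 22.2 and 34.7 other than in NK- or T-like cells (100) and pericyte-like cells (11.2) under DTX, whereas *Has2* in epithelial-like cells and *Vcan* in macrophage-like cells lie far above it.

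In fibroblast-like cells, the difference between libraries was below 2-fold for every member. The level of *Ogn* under DTX was 1.73 times below that under PBS (log2 ratio -0.79, 95% interval -0.85 to -0.73), that of *Lum* 1.63 times (-0.71, -0.73 to -0.69) and that of *Dcn* 1.57 times (-0.65, -0.66 to -0.64). *Aspn* had a log2 ratio of -0.42 (-0.46 to -0.38), *Bgn* one of -0.10 (-0.12 to -0.08) and *Prelp* one of -0.03 (-0.09 to 0.03). The ratios of *Vcan*, *Has1* and *Has2* lay above 0, at 0.40 (0.34 to 0.47), 0.33 (0.29 to 0.37) and 0.28 (0.14 to 0.42). The size for a call was set at a log2 ratio of 1 with an interval off 0, among genes with 50 or more UMIs. None of the 10 members was called, while 2.66% of 11814 genes were called higher and 1.40% lower under DTX. The median log2 ratio of the members was -0.06 beside 0.12 for all genes compared. The median mitochondrial share of fibroblast-like cells was 3.17% under PBS and 4.25% under DTX, and 2.66% and 4.10% in cluster 2 of the clusters described below. At a limit of 4%, which left 2295 and 274 cells, the log2 ratio was 0.69 for *Has1*, 0.72 for *Has2* and -0.49 for *Ogn*, and all 10 ratios kept their sign. The part of RNA quality in these differences was not tested.

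*Fmod*, with a log2 ratio of 0.40 (0.26 to 0.55), rested on few cells. In the PBS-labelled library 15 of 3065 fibroblast-like cells held 50% of its UMIs, and in the DTX-labelled library 4 of 656 did. For the other members 50% of the UMIs lay in 6.82% to 26.7% of cells. A single cell under DTX held 104 of the 520 *Fmod* UMIs, and without the highest cell of each library the log2 ratio was 0.16 (0.00 to 0.32). Of these 19 cells, picked for their *Fmod*, 13 of 15 under PBS and 2 of 4 under DTX fell in 1 cluster, described below as the *Coch* cluster. The other 2 under DTX, with the cell of 104 UMIs among them, fell in cluster 4, described below as led by genes of immune cells. Summed, the 19 cells held *Kera*, the gene of the corneal proteoglycan keratocan, at 470 CPM against 2.63 CPM in other fibroblast-like cells. *Coch* was at 19293 against 267 CPM, *Tnmd*, the tendon gene of tenomodulin, at 1684 against 91.7 CPM, and *Dcn* at 8192 against 14835 CPM. Of 2 tendon transcription factor genes looked up, *Scx* had no UMI in the 19 cells. *Mkx* had UMIs in 9 of them, at 75.5 against 9.29 CPM.

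Fibroblast-like cells were divided into 6 clusters without the use of the members. Cluster 0 was called fascia-like from *Mfap5*, *Pi16* and *Plac8*, the only 3 of 9 listed markers that were raised. It also had the contractile gene *Acta2* at 270 CPM under PBS and 285 CPM under DTX. The next highest of clusters 0 to 3 was cluster 3, at 69.1 and 28.9 CPM, so the name does not cover all of cluster 0. Cluster 0 held 848 cells under PBS and 299 under DTX, or 27.7% and 45.6%. Cluster 1, led by *Grem1*, *Vcam1* and *Ccl8*, went from 33.8% to 14.5%, and cluster 2, led by *Ctla2a*, *Gpx3* and *Cpxm1*, from 24.1% to 9.30%. Both held *Gpnmb*, at 798 and 627 CPM in cluster 1 and 620 and 918 CPM in cluster 2, and neither was named. Cluster 3, the *Coch* cluster, went from 12.4% to 20.1%, and it also had the stress genes *Hspa1a* and *Atf3* among its leading genes. Cluster 4, with 46 and 45 cells, was led by *Cd74* and *Lyz2*, genes of immune cells, and cluster 5, led by *Apod* and *Ccl11*, had 19 and 24. *Mrc1* shows the mixture in cluster 4: its log2 ratio in all fibroblast-like cells was 2.04, and 0.11 (-0.41 to 0.63) without this cluster, a choice made after seeing the data.

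*Dcn* and *Lum* ordered clusters 0 to 3 alike in both libraries. *Dcn* was low in cluster 0, at 7371 CPM under PBS and 8064 CPM under DTX, and high in clusters 1 (21958 and 15514 CPM) and 2 (23498 and 18672 CPM). *Lum* followed the same order, with 1956 and 2003 CPM in cluster 0 and 6344 and 5165 CPM in cluster 2. Cluster 0 instead held the most hyaluronan synthase RNA of clusters 0 to 3 under PBS, with *Has2* at 84.4 and 84.2 CPM and *Has1* at 684 and 801 CPM. Its *Has2* log2 ratio to the other fibroblast-like cells was 1.71 (1.57 to 1.86) under PBS and 1.78 (1.48 to 2.09) under DTX. *Vcan* there was at 316 and 322 CPM, beside 213 and 301 CPM in cluster 3, with a log2 ratio to the other cells of 0.97 (0.91 to 1.04) and 0.39 (0.28 to 0.50).

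*Ogn* marked cluster 2, with 1010 CPM under PBS and 588 CPM under DTX, against 227 and 53.3 CPM in cluster 1. Its log2 ratio to the other fibroblast-like cells was 1.71 and 1.25 in cluster 2, and -1.34 and -2.51 in cluster 1. *Fmod* stood at 340 and 221 CPM in cluster 3 against 11.1 and 26.5 CPM in the other fibroblast-like cells. Among these, the mixed cluster 4 held it at 85.4 and 188 CPM. *Bgn* lay between 2301 and 3350 CPM over clusters 0 to 3 under PBS and between 2101 and 2798 CPM under DTX. These contrasts describe clusters of the same cells and carry no test.

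**Figure D3:**
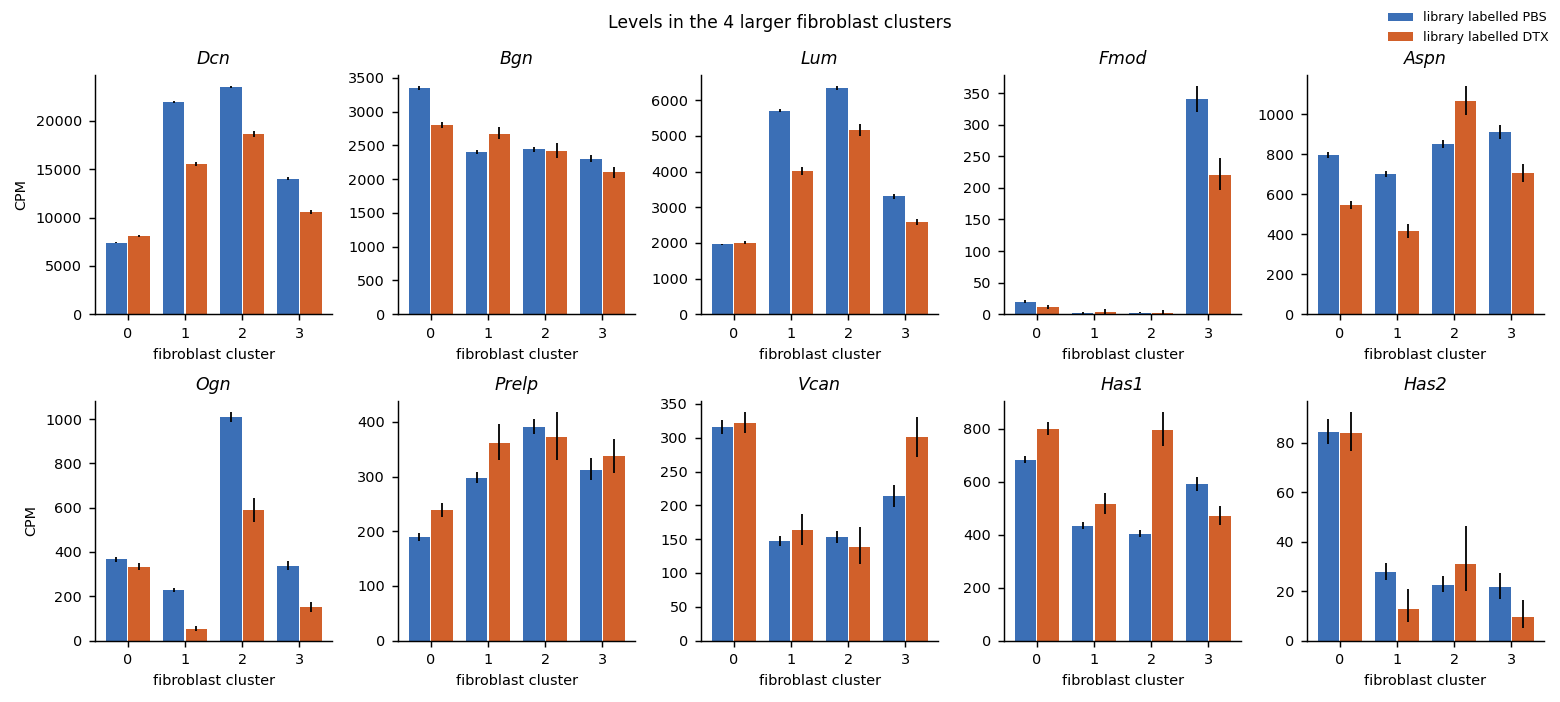
Level of each member in CPM (bars from 0, with a scale for each gene) in fibroblast clusters 0 to 3 of both libraries, with 95% exact Poisson intervals as lines. *Dcn* and *Lum* are lowest in cluster 0, *Has2* is highest there, *Ogn* peaks in cluster 2 and *Fmod* in cluster 3.

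A finer division separated 257 and 80 contractile-like cells, led by *Acta2*, *Lrrc15* and *Postn*. *Dcn* was at 5222 CPM under PBS and 4695 CPM under DTX in these, and *Bgn* at 3961 and 3193 CPM. *Prelp* was at 95.04 and 89.5 CPM, with log2 ratios to the other fibroblast-like cells of -1.67 and -1.79. *Aspn* was at 1042 and 552 CPM in them. *Has1* was at 299 and 174 CPM, a log2 ratio between the libraries of -0.78 (-0.97 to -0.60). A cluster led by *Mgp*, *Prg4* and *Pi16*, with 575 and 216 cells, held *Has1* at 900 and 1123 CPM, a ratio of 0.32 (0.26 to 0.38). It also held *Prg4*, the gene of the joint lubricant lubricin, at 1033 and 1415 CPM. In the finer cluster led by *Coch*, with 238 and 116 cells, *Fmod* was at 579 and 258 CPM. The log2 ratio of *Fmod* between the libraries was -1.16 (-1.35 to -0.98) there, and that of *Ogn* -1.59 (-1.84 to -1.36). The interval of *Fmod* does not cover its spread between cells. Of the *Fmod*-rich cells above, 13 under PBS and 2 under DTX lay in cluster 3. The share of all genes called in the finer clusters was not computed.

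Compared within a cluster, no member differed by 2-fold between the libraries in clusters 0 and 2, while *Ogn* and *Has2* did in clusters 1 and 3. In cluster 0 the log2 ratio of *Dcn* was 0.13 (0.11 to 0.15) and that of *Lum* 0.03 (0.00 to 0.07). In cluster 1 they were -0.50 (-0.52 to -0.48) and -0.51 (-0.55 to -0.47), in cluster 2 -0.33 and -0.30, and in cluster 3 -0.40 and -0.35. The levels of the DTX-labelled library were also weighted to the cluster shares of the PBS-labelled one, taken as shares of UMIs and not of cells. The class ratio of *Dcn* was then -0.31 in place of -0.65, and that of *Lum* -0.32 in place of -0.71. *Fmod* moved from 0.40 to -0.47, *Has2* from 0.28 to -0.09 and *Vcan* from 0.40 to 0.10. *Ogn* moved from -0.79 to -0.69 and *Has1* from 0.33 to 0.34, so these 2 were nearly as far from 0 under the weighting, which was chosen after seeing the data.

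*Ogn* fell from 2281 UMIs (227 CPM) to 70 UMIs (53.3 CPM) in cluster 1, a log2 ratio of -2.07 (-2.43 to -1.73). In cluster 3 it went from 1043 UMIs (337 CPM) to 202 UMIs (150 CPM), a ratio of -1.16 (-1.39 to -0.94). In cluster 2 the ratio was -0.78 (-0.92 to -0.64) and in cluster 0 -0.14 (-0.22 to -0.06). *Has2* went from 279 to 17 UMIs in cluster 1 (-1.05, -1.77 to -0.38) and from 67 to 13 UMIs in cluster 3 (-1.09, -1.96 to -0.28). *Ogn* and *Has2* were thus called lower in both clusters, 2 of 9 members compared in cluster 1 and 2 of 10 in cluster 3. Among all genes 2.21% were called higher and 2.96% lower in cluster 1, and 0.76% and 1.84% in cluster 3. No member was called in cluster 0, where 0.82% of genes were called higher and 0.966% lower, nor in cluster 2, where 1.7% and 2.48% were. An upper limit of 2000 genes per cell ended the call of *Ogn* in cluster 1 (-0.78). A mitochondrial limit of 4% ended that in cluster 3 (-0.84). By the interval, it also ended the call of *Has2* in cluster 1 (-1.24, -3.12 to 0.24). Leaving out cells with RNA of another class ended the call of *Has2* in cluster 1 as well (-0.59). With the finer division matched back to clusters 1 and 3, *Has2* fell short of a call in both (-0.92 in each). Among the finer clusters themselves, *Has2* met the size for a call in that led by *Ccl8* and *Vcam1* (-1.02, -1.94 to -0.20). *Ogn* did so there too (-1.82, -2.19 to -1.46). The share of all genes that met it in the finer clusters was not computed. The finer cluster led by *Coch* had 34 and 9 *Has2* UMIs (18.9 and 7.79 CPM), too few to be compared.

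*Has1* was at 404 CPM under PBS and 797 CPM under DTX in cluster 2, a log2 ratio of 0.98 (0.85 to 1.10), just short of a call. It passed at the mitochondrial limit of 4% and without cells holding RNA of another class (1.22 in each). At the limit of 4% so did *Has2* in cluster 2 (1.08) and *Fmod* in cluster 0 (-1.20). The share of all genes that passed under these alternatives was not computed. The 61 cells of cluster 2 under DTX had a median mitochondrial share of 4.10%, so few were left at that limit. In cluster 3 *Has1* was at 591 and 471 CPM, a ratio of -0.33 (-0.46 to -0.20). The ratio of *Aspn* was 0.33 (0.22 to 0.43) in cluster 2 and -0.76 (-0.89 to -0.63) in cluster 1. The median member ratio was 0.01 in cluster 0, -0.50 in cluster 1, -0.07 in cluster 2 and -0.36 in cluster 3, beside 0.05, 0.05, 0.03 and 0.07 for all genes compared. A list of 10 dissociation response genes summed to 13792 CPM under PBS and 9032 CPM under DTX in cluster 3, and its part in these ratios was not tested.

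**Figure D4:**
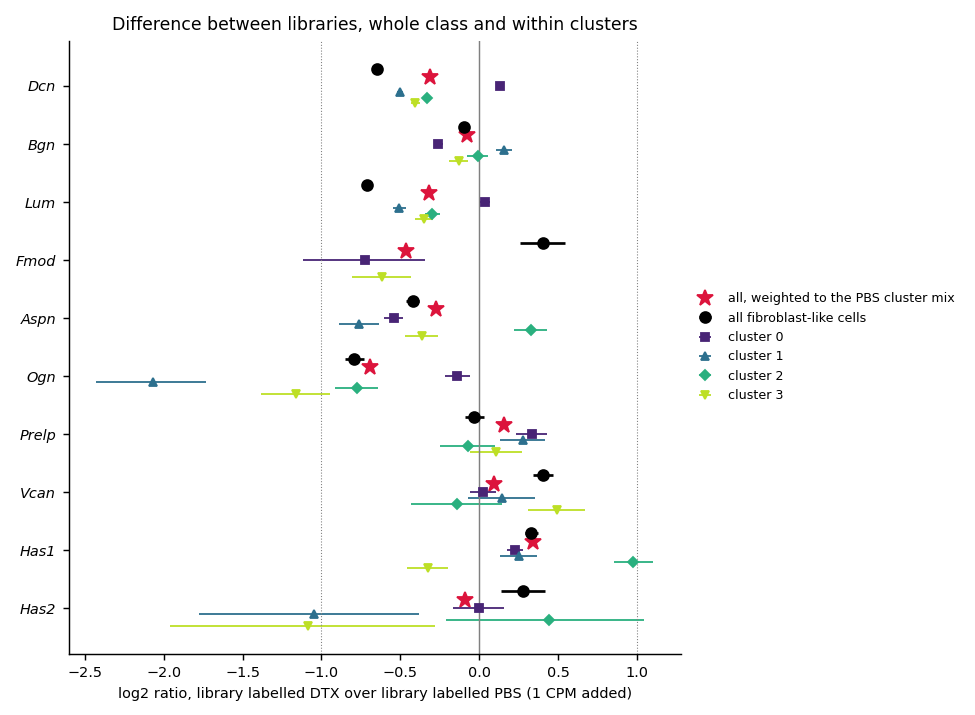
Log2 ratio of each member, DTX-labelled over PBS-labelled library, in all fibroblast-like cells (circles) and in fibroblast clusters 0 to 3. Stars show all fibroblast-like cells weighted to the cluster shares of UMIs under PBS. Bars are 95% exact intervals from counting, which the stars lack, and dotted lines mark the size for a call. *Dcn* and *Lum* lie near 0 in cluster 0 and below it in clusters 1 to 3, and *Ogn* in cluster 1 has a ratio of -2.07.

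The genes of the chromosome 13 row had log2 ratios below 0 in clusters 0 to 3, with the exception of *Aspn* in cluster 2. In cluster 1, *Ecm2* had a log2 ratio of -1.06, *Aspn* -0.76, *Omd* -2.24 and *Ogn* -2.07, although *Omd* had only 4 UMIs under DTX. In cluster 0 the ratios were -0.40, -0.54, -0.18 (-0.59 to 0.22) and -0.14, and in cluster 3 -0.49, -0.37, -0.91 and -1.16. In cluster 2 *Aspn* was at 0.33, beside -0.54, -1.21 and -0.78 for *Ecm2*, *Omd* and *Ogn*.

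*Vcan* RNA lay mainly in fibroblast-like cells under PBS and mainly in macrophage-like cells under DTX. Of 8459 *Vcan* UMIs under PBS, 89.6% were in fibroblast-like cells and 6.14% in macrophage-like cells. Of 12522 under DTX, the shares were 22.3% and 73.6%. These shares also depend on the cells captured, 3065 and 656 fibroblast-like and 1697 and 4421 macrophage-like cells. The level of *Vcan* in fibroblast-like cells was not lower under DTX, at 217 CPM under PBS and 287 CPM under DTX. In the macrophage-like class *Vcan* stood at 62.7 CPM under PBS (519 UMIs) and 302 CPM under DTX (9217 UMIs), a log2 ratio of 2.25 (2.13 to 2.38). *Vcan* was thus the only one of 7 members compared in this class that was called higher, beside 1.62% of all genes. The other 6 were called lower, as were 3.39% of genes, and all 10 genes of the fibroblast RNA list were called lower with them.

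Among macrophage-like clusters, *Vcan* had its highest level in monocyte-like cells, named from 6 raised of 11 listed markers, such as *Plac8* and *Chil3*. Under PBS, however, their interval overlapped that of the *Arg1 Cd9*-like cells. *Vcan* stood at 396 CPM (308 to 502) in 31 monocyte-like cells under PBS and at 679 CPM (661 to 697) in 1070 cells under DTX. The other macrophage-like cells had 55.5 and 169 CPM, so that the log2 ratio of monocyte-like to other cells was 2.81 (2.43 to 3.18) under PBS and 2.00 (1.94 to 2.06) under DTX. In the same contrast 3.65% and 0.702% of all genes passed a log2 ratio of 1. Cells led by *C1q* genes were low, at 43.0 and 22.9 CPM, and made up 1248 cells under PBS and 367 under DTX. *Arg1 Cd9*-like cells held 298 CPM (136 to 566) in 7 cells under PBS and 259 CPM in 957 cells under DTX. The MHC class II-like cells were at 178 and 226 CPM, and the interferon-like cells at 83.5 and 212 CPM.

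Within clusters, the difference between the libraries was smaller than in the class. In monocyte-like cells the log2 ratio was 0.77 (0.43 to 1.14), from 69 and 5425 UMIs, and in *C1q*-like cells it was -0.88. Weighted to the cluster shares of UMIs in the PBS-labelled library, the class ratio was 0.07 in place of 2.25. Weighted to those of the DTX-labelled library, it was 0.46. These weightings were not among the planned comparisons and have no interval. Interferon-like cells passed the size for a call, with 1.33, in a cluster where 4.17% of genes were called higher. After thinning, 29.0% of monocyte-like cells under PBS and 64.2% under DTX had a *Vcan* UMI. The 69 UMIs of the 31 cells limit each comparison that uses monocyte-like cells under PBS. The ratio weighted to the DTX-labelled shares also rests on 9 UMIs in the 7 *Arg1 Cd9*-like cells under PBS.

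Endothelial-like cells had 71 *Vcan* UMIs (67.7 CPM) under PBS and 138 (179 CPM) under DTX. Their log2 ratio was 1.39 (0.97 to 1.82), in a class where 1.86% of genes were called higher. In barcodes with under 500 genes *Vcan* was at 26.4 and 64.4 CPM, and its part in the endothelial value was not tested. These barcodes had a median mitochondrial share of 63.7% and 57.6%, against 3.82% and 4.89% in endothelial-like cells. Their CPM and that of endothelial-like cells thus rest on unlike totals.

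**Figure D5:**
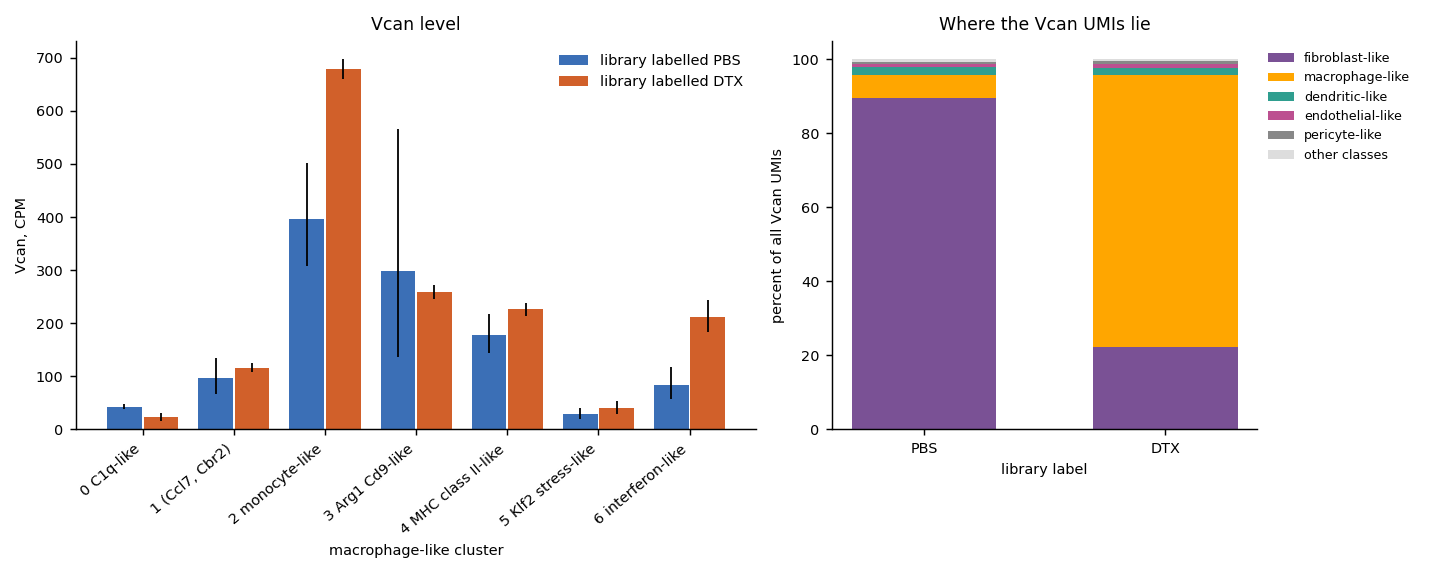
*Vcan* in macrophage-like clusters of both libraries, in CPM with 95% exact Poisson intervals, and the share of its UMIs by class in percent. Monocyte-like cells stand highest among macrophage clusters under DTX at 679 CPM, and macrophage-like cells hold 73.6% of *Vcan* UMIs under DTX against 6.14% under PBS. The shares also depend on how many cells of each class were captured.

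Other genes of the same pathways were taken from a fixed list of 102, of which 76 had enough UMIs in fibroblast-like cells. Of these, 6 were called higher and 2 lower under DTX, with a median log2 ratio of 0.20, against 2.66% higher, 1.40% lower and a median of 0.12 for all genes compared. Among 14 other core proteins, *Kera* (1.08), *Esm1* (1.81), the endothelial proteoglycan endocan, and *Srgn* (2.49), the serglycin of immune granules, were called higher. *Kera* was at 0.95 and *Srgn* at 1.27 without cluster 4. *Omd* (-1.11) and *Ecm2* (-1.04), both of the chromosome 13 row, were called lower. *Prg4* was at 0.82, the basement membrane proteoglycan gene *Hspg2* at 0.23 and *Podn* at -0.38.

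None of the 9 cell surface proteoglycan genes was called, with *Sdc4* at -0.08, *Tgfbr3* at -0.00 and *Sdc2* at -0.39. Nor was any of 29 genes that build and sulfate glycosaminoglycan chains, with *Ext1* at 0.33, *Dse* at 0.20 and *Chpf* at 0.42. Of 9 genes of hyaluronan synthesis and breakdown, *Cemip*, which is needed to degrade hyaluronan in skin fibroblasts, was called higher at 1.21. In cluster 1 it went from 21 UMIs (2.09 CPM) to 88 UMIs (67.1 CPM), whereas in cluster 2 it had 151 UMIs under PBS and none under DTX. *Ugdh*, which makes a sugar precursor of hyaluronan, was at 0.19, *Hexa* at -0.60 and *Tmem2* at 0.17. Among 6 hyaluronan-binding genes, *Hmmr*, which is also a gene of dividing cells, was called higher at 1.12, while *Tnfaip6*, *Ptx3* and *Cd44* were at -0.21, 0.57 and 0.08. Of 9 protease genes *Adamts9* was called higher at 1.10, with *Htra1* at -0.42, *Bmp1* at -0.14 and *Htra3* at -0.26.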

How the data were processed

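Sorted live wound cells were captured with the 10x Genomics 3′ v3 chemistry. The submitters' processing notes name Cell Ranger 6.1.1 and mm10. The authors deposited its UMI counts for each gene in each cell without normalizing them. The members, gene lists and markers were chosen with earlier results of these data known. Barcodes numbered 12058 under PBS and 11031 under DTX. Those with 500 or more genes and no more than 6% of UMIs from mitochondrial genes were kept (8326 and 7188), and Scrublet in scanpy 1.11.5 then removed 382 and 575 cells as doublets. Since its threshold called 0 cells in the DTX-labelled library, the highest 8% of scores were removed there. Cells were clustered in R 4.3.3 with Seurat 5.3.0 on 2000 variable genes and 30 principal components, at a resolution of 0.2 for classes and fibroblasts and 0.5 for macrophages, without the members and their wider list, and named from fixed markers. The scoring by which clusters were named was set after clusters of these data had been seen.

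Raw counts were summed per class and library and expressed in CPM of the class total. Levels have exact Poisson intervals and shares Clopper-Pearson intervals. Log2 ratios have 1 CPM added and exact conditional binomial intervals. Shares of cells were taken after thinning to 2000 UMIs, without shallower cells. The ratio script was tested on simulated data. Named genes were the 10 members, per group of the wider list the 3 with most UMIs and every gene called, the 3 genes of most like pattern per member, leading genes of clusters, *Mrc1* and genes of the sex check. Genes of the *Fmod*-rich cells and *Cemip*, *Prg4* and *Esm1* by cluster were named after their values were seen. Python 3.11.15, numpy 2.4.6, pandas 2.3.3 and scipy 1.17.1 were used. The 13 alternatives, 2 of them chosen after seeing the data, covered doublets, gene and mitochondrial limits, clustering, weighting, cells with RNA of another class, the value added, scaling and thinning, and shares of UMIs by class were recomputed too.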

Additional observations from a re-analysis of the deposited data

Results flagged for a closer look

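Ratios between the libraries pointed in opposite directions in some pairs of fibroblast clusters, with 1 library per condition, so the difference was not tested. *Dcn* had a log2 ratio of 0.13 in cluster 0 and -0.50 in cluster 1, a difference of 0.63. *Lum* had 0.03 and -0.51 in the same clusters, a difference of 0.54. *Aspn* had 0.33 in cluster 2 and -0.76 in cluster 1, which are 1.09 apart. *Has1* had 0.98 in cluster 2 and -0.33 in cluster 3, which are 1.30 apart. In the finer cluster led by *Coch*, however, the ratio of *Has1* was 0.14 (-0.03 to 0.32).

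Barcodes with under 500 genes, which entered no comparison of cells, held 28 *Vcan* UMIs under PBS and 55 under DTX, or 26.4 and 64.4 CPM, a log2 ratio of 1.26. The same barcodes held *Dcn* at 1307 and 284 CPM. Their median mitochondrial share was 63.7% and 57.6%, so their CPM rest on totals unlike those of kept cells.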

How the results depend on the processing

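With 1 library per condition, no result could be checked against a replicate. No paired analysis was possible because each condition has a single library. The median log2 ratio of the members in fibroblast-like cells, -0.06, was 0.016 when cells with over 2000 genes were left out, -0.0099 as a mean over cells, -0.018 without cells holding RNA of another class, -0.11 when scaled without the 50 genes with most UMIs, and -0.18 with clusters weighted to those of PBS, an alternative added after seeing the data. At the mitochondrial limit of 4%, 28 of 37 member ratios within fibroblast clusters moved out of their counting interval. Of 20 shares of a member's UMIs in fibroblast-like cells, 17 moved likewise at that limit, by up to 27.5 points, and 19 under the limit of 2000 genes, by up to 41.5 points. In the fibroblast-like class as a whole, no member was called except under the limit of 2000 genes, which left 518 and 42 cells. There 1 member, *Fmod*, was called lower at -1.49, and the share of all genes called under that limit was not computed. In fibroblast-like cells *Prelp* changed sign under 5 alternatives, *Fmod* under 2, and *Aspn* and *Has2* under 1 each.

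The *Vcan* ratio in monocyte-like cells, 0.77, was 2.62 without cells holding stromal or *Krt14* RNA, where 2 cells and 1 UMI were left under PBS, and the lowest value was 0.67. Monocyte-like against other macrophage-like cells, 2.00 under DTX, gave 2.16 with the limit of 2000 genes, 2.09 as a mean over cells and 1.92 at a resolution of 1.0. Under PBS the ratio lay between 2.74 and 3.14, with no value where only 2 cells were left. Over the alternatives, *Ogn* ranged from -2.76 to -0.78 in cluster 1 and from -2.31 to -0.84 in cluster 3, and *Has2* from -1.24 to -0.59 and from -1.21 to -0.92. For these the cause was not tested.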

Other observations

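Genes whose levels followed the members most closely over 23 sums of a class or fibroblast cluster in a library were searched among 10231 genes. The points share libraries and the split between stromal and immune cells, so Pearson's r is a description. *Bgn* was most like *Fbn1* (0.99), the gene of the microfibril protein fibrillin-1, and *Aspn* most like the fibrillar collagen genes *Col1a2*, *Col3a1* and *Col1a1* (each 0.98). *Dcn* was most like *Cpxm1*, *Itgbl1* and *Lox* (each 0.98), where *Lox* encodes the enzyme that crosslinks collagen. *Lum* was nearest to *Pcolce2*, *Ogn* to *Clec3b*, *Prelp* to *Aebp1* and *Has1* to *Mfap2*, with r from 0.97 to 0.98. *Has2* was nearest to *Gstm2* (0.94), *Vcan* to *Pnp* (0.91) and *Fmod* to *Cck* (0.89), the lowest values of the 10. Between members, *Dcn* and *Lum* were closest (0.99) and *Vcan* and *Has2* least alike (0.39).

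Among the other genes of the pathways, *Esm1* in cluster 0 went from 32 UMIs (2.53 CPM) to 83 UMIs (15.7 CPM), a log2 ratio of 2.24 (1.76 to 2.72). *Prg4* in the same cluster went from 730 to 1019 CPM (0.48, 0.43 to 0.53). In dendritic-like cells *Vcan* was at 55.3 and 39.0 CPM in the cluster led by *Ccr7* and *Ccl22*, and at 6.29 and 47.6 CPM, from 8 and 54 UMIs, in that led by *Cst3* and *H2afz*. All 45 *Fmod* UMIs of Langerhans-like cells under PBS came from 1 cell.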
